A study of Mus musculus with 12 samples.

Results

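Homologous recombination and Fanconi repair genes were followed in cultured colonies of dental epithelial stem cells from mice that differ in Bmi1 and in the Ink4a/Arf locus. The set holds 35 genes, chosen by name as components of these pathways and found on the array through the transcript accession of each probe. Of these, 32 had a probe and were tested, among 31064 genes in all, with 50 probes between them. Atr, Fance and Fancf were not analysed here. The 32 genes tested were well above background on all 4 arrays of every genotype, except Rad51c, which was so on 3 of 4 Bmi1 null arrays.

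The colonies were grown in culture from the labial cervical loop, the epithelial niche at the base of the mouse incisor, from mice of a mixed background. There were 12 colonies, 4 wild type, 4 null for Bmi1 (Bmi1-/-) and 4 double null for Bmi1 and Ink4a/Arf, so both mutant groups lack Bmi1. Each replicate was a single colony hybridised to 1 Agilent whole mouse genome array with Cy3-labelled, amplified RNA. How many animals gave the colonies is not stated, so p-values measure the spread among colonies. Wild-type replicates are numbered 1, 3, 4 and 5, and the others 1 to 4.

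Homologous recombination repairs a broken chromosome by copying the sister chromatid. The break is sensed and its ends are cut back, the single strand then pairs with the intact copy with the help of Brca2 and other proteins, and the joined molecules are later resolved. The Fanconi pathway unhooks crosslinks between DNA strands: a core complex puts ubiquitin on Fancd2 and Fanci, and repair then proceeds through recombination. Many of these genes are transcribed most in S and G2 phase, when a sister chromatid is present. Bmi1 is a Polycomb subunit that represses Ink4a/Arf (Cdkn2a), whose products restrain the cell cycle through the Rb and p53 proteins.

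Levels are given as the log2 of the background-subtracted signal minus the 75th percentile of the array. A level of 0 is therefore the signal of a bright gene, and levels of different probes cannot be set against each other. A gene was called when its adjusted p was under 0.05 in limma's moderated test, with Benjamini-Hochberg adjustment over all 31064 genes. Differences are in log2 units with their standard error (SE), from 1 fit to all 12 arrays.

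Wild-type arrays stood apart from both mutants. The interquartile range of their log2 signals was 2.56 ± 0.06 (SD, n = 4), where Bmi1 null arrays had 4.52 ± 0.18 and double null arrays 4.66 ± 0.42. The median gene lay 1.24 lower in Bmi1 null and 1.39 lower in double null than in wild-type colonies on the log2 scale, but between the mutants only 0.06 lower on double null arrays. Over 5 scalings of the arrays this shift ran from -1.24 to -0.08 for Bmi1 null against wild type, from -1.39 to -0.07 for double null against wild type and from -0.06 to 0.33 between the mutants, so differences are also given relative to the median gene. Array medians of the signal spanned 109 to 210 for wild type, 82.8 to 190 for Bmi1 null and 63.2 to 157 for double null, over local backgrounds of 17 to 23. Bmi1 had a level of -0.27 ± 0.46 (SD, n = 4) on wild-type arrays, -2.36 ± 0.15 with Bmi1 deleted and -2.52 ± 0.21 with both loci deleted. The Cdkn2a probe exceeded background clearly on 4 of 4 Bmi1 null arrays but on 0 of 4 wild-type and 0 of 4 double null arrays, and fell at least 2.51-fold from Bmi1 null to double null colonies (limma adjusted p 6.85e-06). All 12 epithelial marker genes tested were well above background on all 4 arrays of each genotype. In bulk RNA, fewer cells of a type and less RNA per cell cannot be told apart.

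Promoter sequence was examined as a feature that the choice of genes did not use. RefSeq windows of the GRCm38.p6 assembly, 250 bases before to 50 after the annotated start, were at hand for 24 of the 32 genes. An E2F site, read as TTTCCCGC or TTTGGCGC on either strand, lay in the windows of 5 of the 24 genes (20.8%), against 1.80% of 27025 genes with a window and 10 of 22 replication fork genes. E2F factors drive genes of S phase and are held back by Rb. The search took only these exact letters, so that matches share letters follows from its rule. The 5 matches, in genes that differed in their response, all read TTTCCCGC or its reverse complement. They are printed with up to 30 bases before and 20 after, along the gene's own strand, with the match in capitals.
Bard1 (chr1:71103154-71103211, minus strand): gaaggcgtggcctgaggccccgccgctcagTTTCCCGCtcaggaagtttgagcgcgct
Brca2 (chr5:150522423-150522480, plus strand): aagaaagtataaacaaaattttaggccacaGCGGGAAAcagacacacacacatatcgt
Chek2 (chr5:110839801-110839858, plus strand): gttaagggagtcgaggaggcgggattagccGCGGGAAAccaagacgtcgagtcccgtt
Fancg (chr4:43010326-43010383, minus strand): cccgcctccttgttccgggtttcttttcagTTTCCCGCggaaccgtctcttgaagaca
Rad51c (chr11:87404935-87404989, minus strand): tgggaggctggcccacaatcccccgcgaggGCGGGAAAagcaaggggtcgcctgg

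The match began 209 bases before the annotated start in Bard1, 168 in Brca2, 152 in Chek2, 52 in Fancg and 5 in Rad51c. In double null against Bmi1 null colonies, described next, Bard1 was called higher, Fancg lower, and the other three were not called. A match describes the letters of a window and not a bound factor. The box CCAAT, which NF-Y binds in many cell cycle promoters, lay in 14 of the 24 windows (58.3%), against 41.1% of all genes, and it overlapped 0 of the E2F matches. The letters TTTGAA, the core of the cell cycle homology region, lay in 3 of 24 (12.5%), against 20.2% of all genes. Of the genes called higher in the double null, 5 had a window. The CCAAT box lay in 2 of these 5, Brca1 and Rad51ap1, a share close to the 41.1% of all genes. The copy of the box nearest to the start, 86 bases before it in Brca1 and 36 in Rad51ap1, is shown in capitals, in the second as its reverse complement.
Brca1 (chr11:101552017-101552071, minus strand): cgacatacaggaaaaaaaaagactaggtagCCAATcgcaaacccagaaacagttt
Rad51ap1 (chr6:126939599-126939653, minus strand): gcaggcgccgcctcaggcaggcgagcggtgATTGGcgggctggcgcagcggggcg

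Setting double null against Bmi1 null colonies asks what changes when Ink4a/Arf is lost in cells that already lack Bmi1. Of the 32 genes, 7 rose, 1 fell and 24 were not called. The 7 were Bard1, Brca1, Rad51ap1, Xrcc2, Exo1, Fancl and Chek1, and the gene that fell was Fancg. Over all genes tested, 7.43% were called, 2.81% higher and 4.62% lower. The median difference of the 32 genes was 0.52, against -0.06 over all genes, and 28 of the 32 lay above the median gene. The 4 double null arrays did not overlap the 4 Bmi1 null arrays for 12 of the 32 genes, 11 of them higher and 1 lower in the double null. Over all genes the arrays did not overlap for 13.8%, with 6.6% higher and 7.18% lower.

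**Figure D1:**
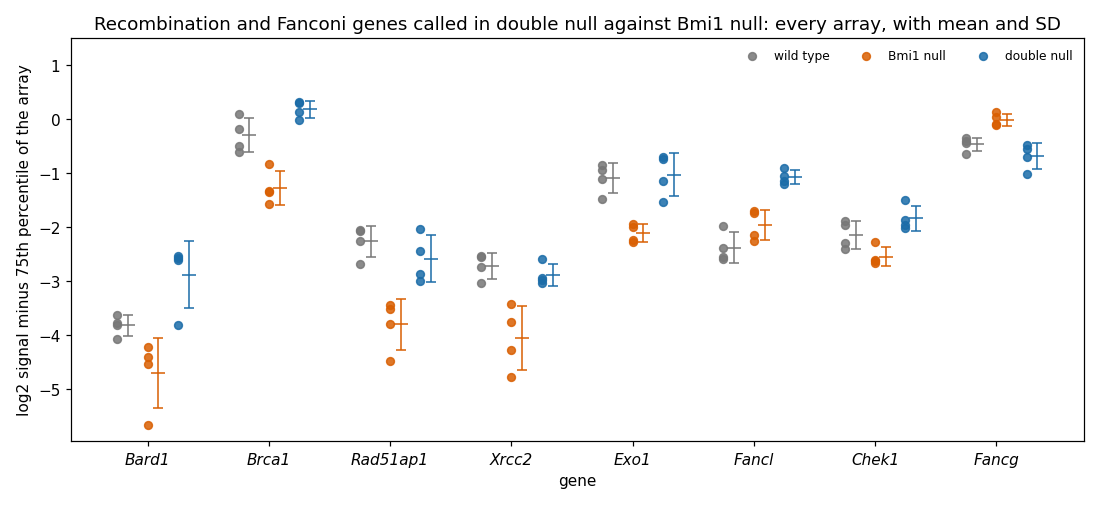
Level of the 8 genes called in double null against Bmi1 null colonies. Each point is 1 array (log2 signal less the 75th percentile of its array), and the bars are mean and SD of 4 arrays per genotype. For each of the 8 genes the blue double null points and the orange Bmi1 null points do not overlap.

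The BRCA core gave the 2 largest called rises. Brca1, the ubiquitin ligase that directs ends towards recombination, had levels of -1.36, -0.83, -1.34 and -1.57 on the Bmi1 null arrays and 0.30, 0.29, 0.12 and -0.03 on the double null arrays. The lowest double null array lay above the highest Bmi1 null array, and the difference was 1.45 ± 0.22 (SE; limma adjusted p 0.00253). In wild type the levels were -0.61, -0.49, -0.20 and 0.09, between both mutants and reaching into the double null range. A second Brca1 probe rose too, by 1.08 ± 0.23 (limma adjusted p 0.0128 in a fit of all probes).

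Bard1, the partner without which the Brca1 ligase is unstable, had levels of -5.67, -4.54, -4.22 and -4.42 on Bmi1 null and -2.58, -2.55, -2.61 and -3.82 on double null arrays. It rose by 1.82 ± 0.35 (SE; limma adjusted p 0.00844), although double null replicate 4 lay more than 1 log2 unit below the other three. The wild-type levels were -3.78, -4.09, -3.82 and -3.64, above every Bmi1 null array.

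Brca2, which acts on single-stranded DNA once the ends are cut back, had levels of -2.50, -2.66, -2.90 and -3.11 on Bmi1 null and -1.69, -2.19, -2.26 and -2.30 on double null arrays. The arrays did not overlap, but the difference of 0.68 ± 0.20 (SE) missed the threshold (limma adjusted p 0.0646). Its second probe was called, at 0.95 ± 0.26 (limma adjusted p 0.0407 in the fit of all probes). Palb2, the link between Brca1 and Brca2, differed by 0.58 ± 0.31 (SE) and overlapped, with double null levels from -3.17 to -1.43.

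Among the 8 genes of strand exchange, 2 rose and none fell. Rad51ap1, which stimulates strand invasion, had levels of -3.45, -3.52, -3.79 and -4.48 on Bmi1 null and -2.04, -2.87, -2.46 and -3.00 on double null arrays. It rose by 1.22 ± 0.28 (SE; limma adjusted p 0.0217), without overlap. The wild-type levels, -2.07, -2.69, -2.06 and -2.27, all lay within the double null range.

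Xrcc2, which acts early in strand exchange, had levels of -4.29, -3.77, -4.79 and -3.43 on Bmi1 null and -2.60, -2.95, -2.99 and -3.05 on double null arrays. It rose by 1.17 ± 0.27 (SE; limma adjusted p 0.022), and the spread over arrays was 0.60 (SD) on Bmi1 null and 0.20 on double null arrays. Its second probe differed by 0.46 ± 0.23 and was not called.

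The genes of strand exchange did not share 1 pattern. Rad51c had the second largest difference of all 32 genes, 1.54 ± 0.48 (SE), but its Bmi1 null levels ran from -5.24 to -2.58 and overlapped the double null levels of -2.69 to -1.84 (limma adjusted p 0.0718). Xrcc3, which acts with Rad51c, had levels of -0.72, -0.55, -0.44 and -0.81 on Bmi1 null and -0.66, -1.0, -0.84 and -1.20 on double null arrays, a difference of -0.29 ± 0.18. These overlapped and were not called. Rad51b differed by -0.0033 ± 0.32, on 3 double null arrays because its spot on replicate 1 was marked as an outlier, and Rad51d by 0.22 ± 0.21, and the probes of each disagreed in sign. The motor proteins Rad54l and Rad54b, which move along DNA to help strand exchange, differed by 0.78 ± 0.23 (limma adjusted p 0.0587) and 0.46 ± 0.28.

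The Fanconi core complex held calls in both directions. Fancl, the ubiquitin ligase subunit that modifies Fancd2, had levels of -1.70, -1.75, -2.26 and -2.15 on Bmi1 null and -1.15, -0.91, -1.20 and -1.05 on double null arrays. It rose by 0.89 ± 0.20 (SE; limma adjusted p 0.0203), and the wild-type levels of -2.56, -2.60, -2.40 and -1.99 were lower than every double null array. Its second probe differed by 0.45 ± 0.17 and was not called.

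Fancg, a scaffold of the same complex, had levels of -0.10, -0.12, 0.03 and 0.12 on Bmi1 null and -0.49, -0.71, -1.02 and -0.55 on double null arrays. It fell by 0.67 on the log2 scale (SE 0.18; limma adjusted p 0.0356), with no overlap. The wild-type levels were -0.42, -0.65, -0.36 and -0.45, all below the Bmi1 null arrays. A second Fancg probe differed by -0.19 ± 0.19 between the mutants and was not called.

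The other 3 core subunits were not called. Fanca differed by 0.74 ± 0.29 (SE) and Fancm, the translocase that anchors the complex on DNA, by 0.52 ± 0.20 without overlap (limma adjusted p 0.141). Fancc had levels of -0.80, -1.68, -0.64 and -0.78 on Bmi1 null and -0.82, -2.12, -0.65 and -1.31 on double null arrays, a difference of -0.25 ± 0.36. In both mutants its replicate 2 was the lowest array. Of the proteins downstream, Fanci differed by 0.92 ± 0.27 (limma adjusted p 0.0565), Fancd2 by 0.51 ± 0.30 and the Brca1-binding helicase Brip1 by 0.70 ± 0.28, and all 3 overlapped.

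Exo1, the nuclease that extends resected ends, had levels of -1.94, -2.29, -2.0 and -2.24 on Bmi1 null and -0.70, -1.15, -0.74 and -1.55 on double null arrays. It rose by 1.08 ± 0.23 (SE; limma adjusted p 0.0141), without overlap. The wild-type levels were -1.12, -1.48, -0.95 and -0.85, all within the double null range. The break sensors of the MRN complex differed less: Nbn by 0.60 ± 0.20, without overlap (limma adjusted p 0.0902), and Rad50 by 0.17 ± 0.26. Rbbp8, which starts resection, differed by 0.28 ± 0.26 with overlap.

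None of the 3 genes of junction processing was called. The helicase Blm differed by 0.50 ± 0.24 (SE), and the nuclease subunits Eme1 and Mus81 by 0.12 ± 0.19 and -0.19 ± 0.19. Mus81 had levels of -0.23, -0.65, 0.05 and -0.20 on Bmi1 null and -0.25, -0.64, -0.33 and -0.59 on double null arrays, and these overlapped.

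Among the checkpoint genes 1 of 5 rose. Chek1, the kinase that halts the cell cycle when replication stalls, had levels of -2.62, -2.28, -2.64 and -2.67 on Bmi1 null and -1.50, -2.02, -1.88 and -1.97 on double null arrays. It rose by 0.71 ± 0.20 (SE; limma adjusted p 0.0479), without overlap, and its dimmer second probe differed by 1.25 ± 0.40 without a call. Topbp1, an activator of the Atr kinase, differed by 0.53 ± 0.18 without overlap (limma adjusted p 0.09). Atm, Atrip and Chek2 differed by 0.44 ± 0.26, 0.12 ± 0.18 and 0.13 ± 0.37 and overlapped.

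**Figure D2:**
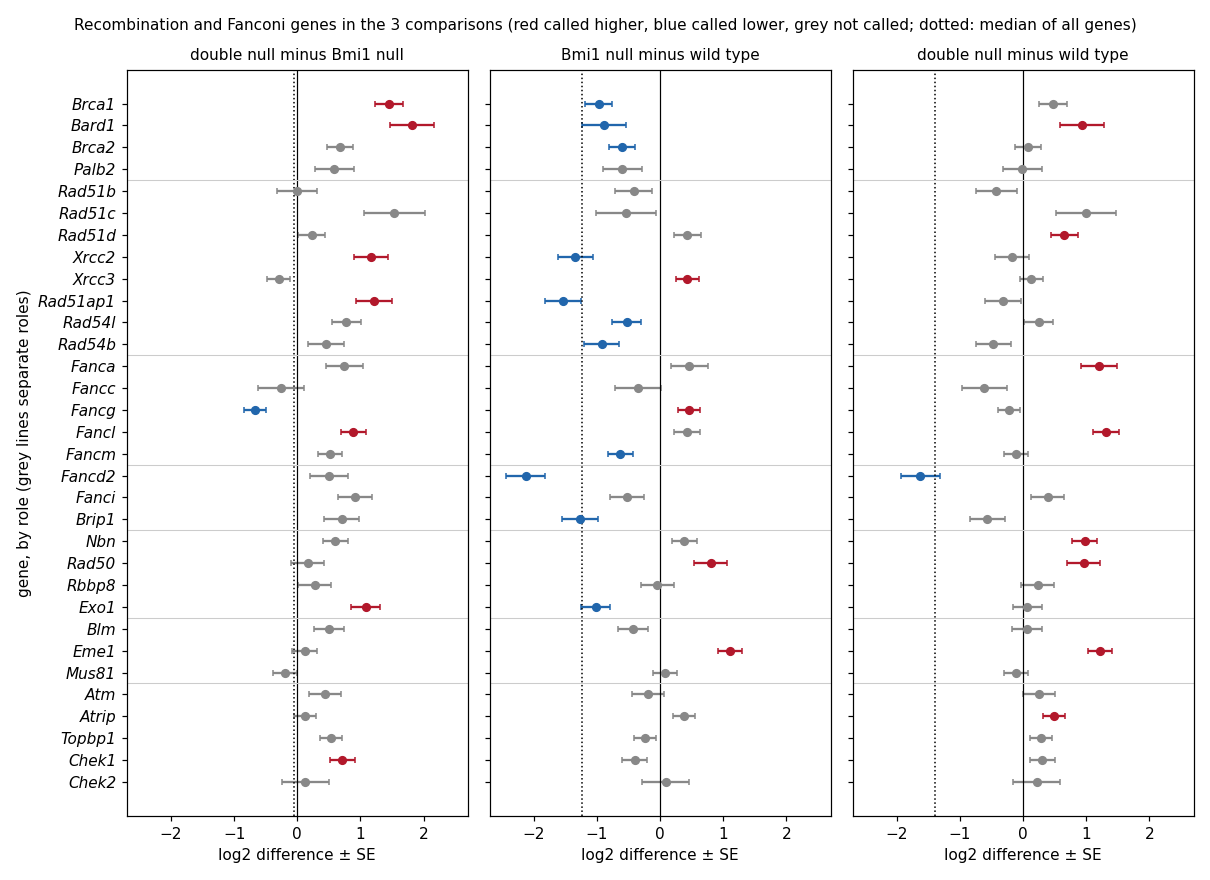
Log2 difference ± SE of the 32 genes in the 3 comparisons, in the order of their roles, from 1 fit to all 12 arrays. The dotted line is the median of all genes, which lies at -0.06, -1.24 and -1.39 from left to right; in the left panel 28 of 32 genes lie to the right of it.

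Brca1, Rad51ap1 and Exo1 were called higher under each of 5 scalings of the arrays, as were 1.30% of all genes, and no gene of the set was called lower under all 5 (all genes 0.988%). Fitting the scanned slide as a fixed block, since slides held unequal numbers of the genotypes, ended all 8 calls: 0 of 32 were called by limma and 0.869% of all genes, with 13 of the 32 at an unadjusted p under 0.05 and the smallest adjusted p 0.0674, for Brca1. Within the 2 slides that carried both mutants, 29 of 32 differences were positive on slide 2 (1 array of each) and 24 of 32 on slide 3 (2 double null arrays and 1 Bmi1 null array). The 8 called genes could not change sign there, since their arrays did not overlap between the mutants. On these slides the median of the 32 genes was 0.51 and 0.47. Brca1 differed by 0.95 and 1.48 there, Bard1 by 1.93 and 1.02, and Fancg by -0.90 and -0.55. The median of the 32 genes relative to the median gene was 0.59, and 0.22 after normexp background correction; fitting only the 8 arrays of these genotypes left 2 genes called higher and 0 lower.

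Some of these calls were lost when 1 array was left out. Brca1, Bard1 and Exo1 remained called whichever of the 12 arrays was left out. Xrcc2 was lost without Bmi1 null replicate 1 (limma adjusted p 0.0518), Rad51ap1 without Bmi1 null replicate 4 (0.0573) or double null replicate 3 (0.0613), and Fancl without Bmi1 null replicate 3 or 4 or double null replicate 2 (0.0540 to 0.0591). Chek1 remained called only without Bmi1 null replicate 2, and Fancg only without wild-type replicate 3 or 5 or double null replicate 1 or 4. Leaving out a wild-type array did not change the differences of Chek1 (0.71) and Fancg (-0.67). It changed the estimate of the spread that the genotypes share, and its degrees of freedom. Without Bmi1 null replicate 4 the number of genes called higher was 4, the lowest.

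Double null replicate 4 was the lowest of its group for 19 of the 31 genes measured on all 4 double null arrays, and double null replicate 1 the highest for 21. Relative to the median gene of the same array, the median of the 32 genes was 1.35, 1.24, 1.45 and 1.09 on double null replicates 1 to 4 and 0.93, 0.51, 0.71 and 0.58 on Bmi1 null replicates 1 to 4. By this measure too the 2 mutants did not overlap. Replicate 1 of the double null had 1336 spots marked as outliers, against 55 to 132 on the other arrays, and the part of this in its levels was not tested.

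**Figure D3:**
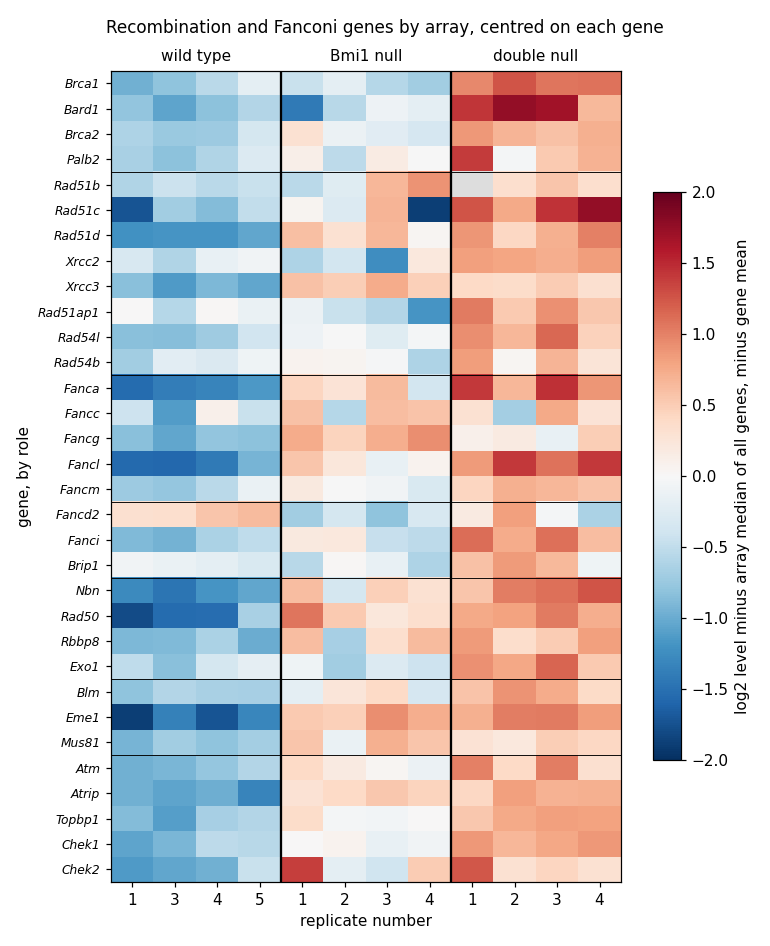
Levels of the 32 genes on the 12 arrays, as log2 level minus the array's median gene and minus the gene's mean over arrays; colours end at -2 and 2, and the grey cell is the outlier spot of Rad51b. The double null columns are mostly red and the wild-type columns mostly blue, with Fancd2 as the row that runs the other way in wild type.

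The rest of the pathway was read from lists of genes set by function. Among 49 further recombination and Fanconi genes, 7 rose and 0 fell in double null against Bmi1 null colonies, with a median difference of 0.28. Rpa2, a subunit of the protein that coats single-stranded DNA, rose by 1.40 ± 0.24 (SE; limma adjusted p 0.00501), and Mcm8, a helicase of recombination, by 1.18 ± 0.21 (0.00600). Fignl1, a further regulator of recombination, rose by 1.16 ± 0.27 (0.0233).

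Other repair pathways were read in the same way. Of 12 end-joining genes 1 rose, Polq, the polymerase of microhomology-mediated joining, by 1.14 ± 0.30 (SE; limma adjusted p 0.0386). In mismatch repair 3 of 10 rose, Pcna by 1.21 ± 0.30, Lig1 by 1.14 ± 0.23 and Rfc1 by 1.11 ± 0.27, and these 3 are the sliding clamp, a ligase and a clamp loader subunit that also serve the replication fork. In base excision repair 4 of 16 rose, among them the flap nuclease Fen1 (1.22 ± 0.21) and the glycosylases Ung (1.20 ± 0.24) and Tdg (1.07 ± 0.26). In nucleotide excision repair 0 of 18 rose and 1 fell, the nuclease gene Ercc5, by 1.20 on the log2 scale (SE 0.20; limma adjusted p 0.00437). These counts were not tested against each other.

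Replication and mitosis genes were measured on the same arrays. Of 29 replication fork genes 10 rose and 0 fell (median 0.79), among them the thymidylate enzymes Tk1 (1.61 ± 0.32) and Tyms (1.56 ± 0.29) and the helicase subunit Mcm5 (1.28 ± 0.17). Of 20 mitosis genes 12 rose and 0 fell (median 1.07), among them Nusap1 (1.68 ± 0.25), Top2a (1.60 ± 0.33) and Cenpf (1.48 ± 0.31). Both medians were above the 0.52 of the recombination and Fanconi genes. The part of dividing cells in the rise of the repair genes was not tested.

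**Figure D4:**
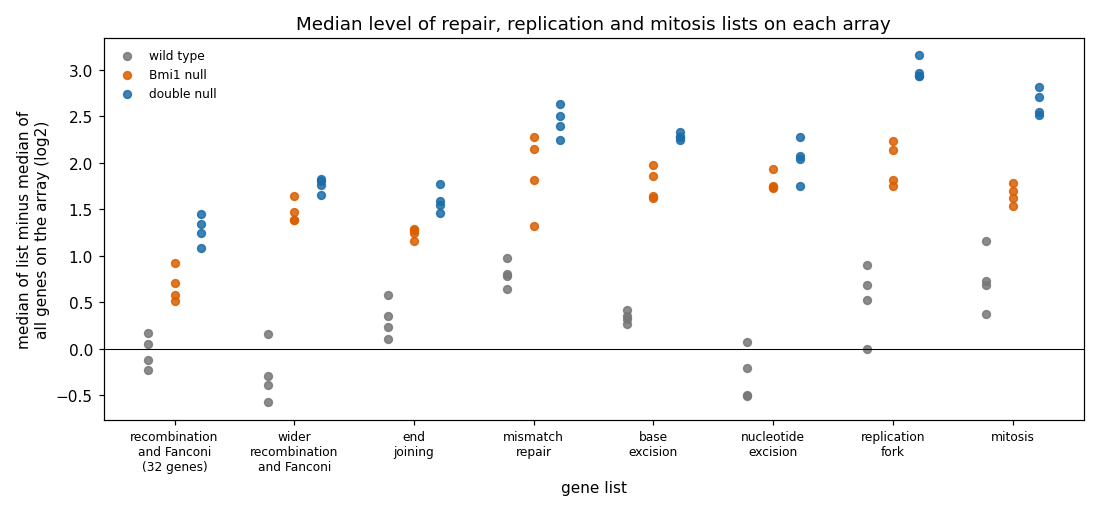
Median level of 8 gene lists on each array, minus the median of all genes on that array (log2), with 1 point per array and 3 genotypes. The recombination and Fanconi genes lie at -0.23 to 0.17 on wild-type, 0.51 to 0.93 on Bmi1 null and 1.09 to 1.45 on double null arrays, and replication fork and mitosis genes separate the mutants further.

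Markers of other cells were measured beside these changes. Between the mutants 0 of 11 mesenchymal, 0 of 9 immune, 0 of 6 endothelial, 0 of 6 glial and melanocyte and 0 of 8 germ cell markers were called. Of 12 epithelial markers Epcam rose (1.73 ± 0.34) and Col17a1 fell by 1.43 on the log2 scale, and 3 of 8 dental stem cell markers rose, Igfbp5 by 4.92 ± 0.60, Lrig1 by 1.93 ± 0.42 and Lgr5 by 1.93 ± 0.41. The median marker of mesenchyme, relative to the median gene, ran from -0.98 to 2.92 over double null arrays and from -0.13 to 0.68 over Bmi1 null arrays. The part of cell composition in the repair genes was not tested. Tyr was well above background on no array of either mutant.

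Setting Bmi1 null against wild-type colonies asks what the loss of Bmi1 does to these genes, and this comparison shares the Bmi1 null arrays with the comparison above. Of the 32 genes 4 rose, 11 fell and 17 were not called, where 83.5% of all genes were called, 25.2% higher and 58.3% lower. The 11 were Brca1, Bard1, Brca2, Xrcc2, Rad51ap1, Rad54l, Rad54b, Fancm, Fancd2, Brip1 and Exo1, and the 4 were Xrcc3, Fancg, Rad50 and Eme1. The median difference was -0.41, which is 0.83 above the median gene, with 28 of 32 genes above it. Over the 21929 genes well above background on all 12 arrays the direction turned: the median of the 31 set genes tested there lay at -0.10 relative to the median gene, and 14 of 31 lay above it. The arrays of the 2 genotypes did not overlap for 3 genes in the higher and 12 in the lower direction, where 80.1% of all genes did not overlap, 23.8% higher and 56.3% lower.

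All 9 immune, 6 endothelial, 6 glial and melanocyte and 8 germ cell markers were called lower in Bmi1 null colonies against wild type, and 10 of 12 epithelial markers higher. Of 11 mesenchymal markers 6 were lower and 1 higher, and of 8 dental stem cell markers 5 were lower and 2 higher. The median immune marker, relative to the median gene, ran from 0.69 to 1.14 over wild-type arrays and from -1.34 to -0.87 over Bmi1 null arrays. The part of these cells in the repair genes was not tested.

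Direction here turned with the scaling of the arrays. Counts of higher and lower calls were 16 and 2 after scaling to the array median, 16 and 3 after quantile normalization, 2 and 14 after normexp background correction and 18 and 4 in the authors' deposited table. Rad50 and Eme1 alone were called higher under all 5 scalings (all genes 19.1%), none was called lower under all 5 (all genes 29.4%), and 7 genes were called both ways. Of all genes called, 30.2% were higher in the 75th percentile scaling, 46.9% with the array median, 46.7% with quantile normalization and with the authors' table, and 28.4% with normexp. In the comparison between the mutants these shares were 37.8%, 42.9%, 37.7%, 48.8% and 58.7% for the 75th percentile, the array median, quantile normalization, the authors' table and normexp.

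Eme1, the partner of the Mus81 nuclease, had levels of -0.67, -0.17, -0.51 and -0.14 in wild type, 0.48, 0.71, 1.02 and 0.71 on Bmi1 null and 0.92, 0.92, 0.96 and 0.59 on double null arrays. Both mutants lay above every wild-type array, by 1.10 ± 0.19 (SE; limma adjusted p 0.000179) and 1.22 ± 0.19 (7.26e-05). Rad50, the tether of the MRN complex, had wild-type levels of -0.37, -0.15, -0.10 and 0.71 and Bmi1 null levels of 1.24, 0.96, 0.53 and 0.54. It rose by 0.80 ± 0.26 (SE; limma adjusted p 0.0127), with wild-type replicate 5 inside the Bmi1 null range.

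By the probe that stood for each gene, Fancd2, the clamp subunit that receives ubiquitin, lay furthest below wild type in the 75th percentile scaling. In the authors' deposited table Rad54l differed more in Bmi1 null colonies (-1.06, against -0.24 for Fancd2). A second Fancm probe lay lower still, at -2.42 ± 0.26 (SE) in Bmi1 null and -2.19 ± 0.26 in double null against wild type. It was called in both (limma adjusted p 3.45e-06 and 6.85e-06 in the fit of all probes), where the Fancm probe used differed by -0.63 and -0.11. Fancd2 had levels of -2.49, -2.50, -2.24 and -2.23 in wild type, -4.76, -4.15, -4.73 and -4.35 on Bmi1 null and -3.63, -3.30, -4.14 and -4.90 on double null arrays. Every mutant array lay below every wild-type array, and the differences were -2.13 ± 0.30 (SE; limma adjusted p 3.1e-05) and -1.63 ± 0.30 (0.00026). Relative to the median gene, Fancd2 was lower in Bmi1 null colonies under all 5 scalings, by 0.14 to 0.89 on the log2 scale, but it was not called after quantile normalization (-0.28) or in the authors' deposited table (-0.24). Brip1, with wild-type levels of -0.38, -0.46, -0.50 and -0.67 and Bmi1 null levels of -2.11, -1.27, -1.57 and -2.14, was the other gene below the median gene under all 5. Its difference was -1.27 ± 0.28 (SE; limma adjusted p 0.000957), which is 0.03 below the median gene.

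Probes of 1 gene often disagreed against wild type. Of 17 genes with several probes 7 differed in sign between them in Bmi1 null against wild type and 5 in double null against wild type, against 3 between the mutants (Chek2, Rad51b and Rad51d). The second probe of Brca1 differed by 0.28 ± 0.23 in Bmi1 null against wild type, where the first fell, and the second probe of Fancg by -1.27 ± 0.19, where the first rose. Second probes of Brca2 and Xrcc2 differed there by 0.30 ± 0.26 and 0.13 ± 0.23 without a call, where the first probes fell.

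Double null colonies were also set against wild type, a comparison that shares arrays with both others. Of the 32 genes 8 rose, 1 fell and 23 were not called, where 85.4% of all genes were called, 25.7% higher and 59.7% lower. The 8 were Bard1, Fancl, Rad50, Eme1, Rad51d, Fanca, Nbn and Atrip, and Fancd2 was the gene that fell. Of the other Rad51d probes, 1 fell by 1.87 on the log2 scale (SE 0.23) and 1 rose by 0.52 ± 0.16, both called in the fit of all probes. Among the uncalled genes, a second probe was called lower there for Fancm (-2.19), Fancg (-1.46), Brip1 (-1.18) and Mus81 (-0.63). A second probe was called higher for Brca1 (1.36), Brca2 (1.26), Xrcc2 (0.58) and Chek2 (1.40). The median difference of the 32 genes was 0.23, which is 1.62 above the median gene, and 31 of the 32 genes lay above it. That relative median was 0.97 after quantile normalization, 0.85 in the authors' deposited table, 0.59 after normexp and 0.59 over genes well above background on all 12 arrays. The arrays of the 2 genotypes did not overlap for 9 genes, 6 higher and 3 lower, where 81.3% of all genes did not overlap, 24.7% higher and 56.6% lower. Beside these calls 9 of 9 immune, 6 of 6 endothelial, 6 of 6 glial and melanocyte and 7 of 8 germ cell markers were lower and 11 of 12 epithelial markers higher. On average 80.1% of spots were well above background on double null arrays, against 94.6% on wild-type arrays. The part of cell composition or of the array range in these marker calls and in the repair genes was not tested. Of 11 mesenchymal markers 5 were lower and 1 higher, and of 8 dental stem cell markers 3 were lower and 4 higher.

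Fanca, a core complex subunit, had levels of -2.56, -2.44, -2.34 and -2.22 in wild type and -0.61, -1.67, -0.85 and -1.61 in double null colonies. It rose by 1.20 ± 0.29 (SE; limma adjusted p 0.00183), without overlap. Nbn, the regulatory subunit of MRN, had levels of -1.90, -2.11, -1.80 and -1.72 in wild type and -1.07, -0.91, -0.81 and -0.81 in double null colonies, a rise of 0.98 ± 0.20 (0.000476). Fancl rose by 1.31 ± 0.20 (SE; limma adjusted p 5.82e-05) and Rad50 by 0.96 ± 0.26 (0.00397). These 4 genes and Eme1 were called higher under all 5 scalings, 5 of 32 genes where 20.5% of all genes were so called. No gene of the set was called lower under all 5 (all genes 26.5%), and the fall of Fancd2 turned to 0.28 after quantile normalization and 0.06 in the authors' deposited table. Higher and lower calls numbered 27 and 0 with the array median, 20 and 0 after quantile normalization, 7 and 0 after normexp and 22 and 0 in the authors' deposited table.

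**Figure D5:**
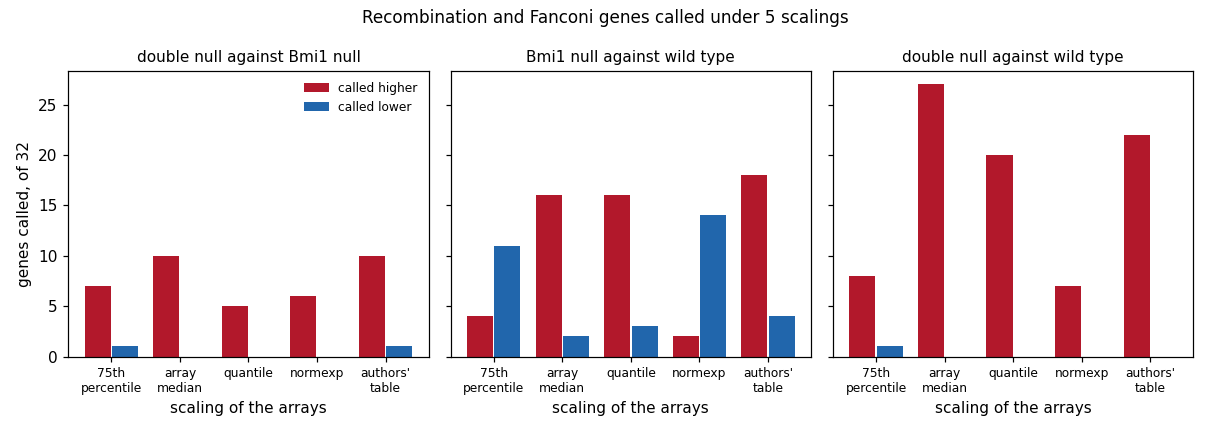
Number of the 32 genes called higher (red) and lower (blue) at a limma adjusted p under 0.05 in the 3 comparisons, under 5 scalings of the arrays. Between the mutants 5 to 10 genes were higher and 0 or 1 lower, where 1.67% to 3.06% of all genes were higher and 1.48% to 4.62% lower. In Bmi1 null against wild type the split ran from 18 higher and 4 lower to 2 higher and 14 lower.

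Setting the 3 comparisons side by side, Brca1, Xrcc2, Rad51ap1 and Exo1 were lower in Bmi1 null against wild-type colonies, higher in double null than in Bmi1 null, and not called between double null and wild type. These 4 genes were each called higher in double null against wild type under 3 of the 5 scalings. Bard1 was likewise lower in Bmi1 null colonies and higher in the double null, and was also called higher in double null than in wild type. The second probes of Brca1 and Xrcc2 did not fall in Bmi1 null against wild type (0.28 ± 0.23 and 0.13 ± 0.23, not called). Both of these probes were called higher in double null against wild type (1.36 and 0.58), and that of Xrcc2 was not called between the mutants. With the slide as a fixed block Bard1 lost all 3 calls (limma adjusted p 0.171 between the mutants, 0.107 for Bmi1 null and 0.291 for double null against wild type). The block also ended the calls of Brca2, Fancg, Fancm, Rad54l and Xrcc3 in Bmi1 null and of Rad51d and Atrip in double null colonies against wild type. Against wild type, Brca1 was called lower in Bmi1 null colonies under 4 of the 5 scalings and Exo1 under 2, and the differences of Bard1, Xrcc2 and Rad51ap1 changed sign under quantile normalization and in the authors' deposited table. Mean levels were lowest in Bmi1 null colonies for 19 of the 32 genes in the 75th percentile scaling and 21 after normexp, but for 6 with the array median, 9 with quantile normalization and 8 in the authors' deposited table, where wild type was lowest for 26, 22 and 23. They were highest in double null colonies for 20 to 27 genes over the 5 scalings. By the probe used and in the 75th percentile scaling, 11 of the 32 genes were called in none of the 3 comparisons. They were Palb2, Rad51b, Rad51c, Fancc, Fanci, Rbbp8, Blm, Mus81, Atm, Topbp1 and Chek2. Second probes were called in Bmi1 null against wild type for Chek2 (2.08 ± 0.37, limma adjusted p 0.000217) and Atm (-0.78 ± 0.20, 0.00328). In double null against wild type, second probes were called for Mus81 (-0.63) and Chek2 (1.40).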

How the data were processed

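RNA of 12 colonies was measured on 1-colour arrays. Spot intensities and their flags were deposited as scanner output of Feature Extraction 10.7.3.1, with background-subtracted processed signals, per the file headers. The authors' deposited table of the same arrays holds log2 values: its columns correlated at 0.992 to 1.00 with the log2 spot medians, which settles scale and direction, while no source used here states its normalization. Column medians there were 7.21 to 7.24.

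The genes and lists here were chosen with earlier results of these data known. Control spots and outlier spots were left out. Levels were log2 processed intensity minus the array's 75th percentile. A probe was kept if it was well above background on 3 of 4 arrays, or more, in any genotype, and the probe with the highest mean over 12 arrays stood for its gene. Symbols came from accessions matched without versions to RefSeq (GRCm38.p6), which gave 1 symbol to 24844 of 41174 probes, several to 0 and none to 16330. A mean per genotype was fitted to all 12 arrays (limma 3.58.1, R 4.3.3, 9 residual degrees of freedom). A bound of at least N-fold sets the bright group's mean against the mean, over the dim group's arrays, of the higher of the probe's own signal and the lowest signal well above background.

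Alternatives were 4 other scalings (the array median, quantile, normexp with an offset of 50 and the authors' table), 2 filters, slide and replicate blocks, the mean over probes, outlier spots kept, the 8 arrays of 2 genotypes, and each array left out. Normexp used the median spot intensity, since the mean was not used here. All genes in the set may be named. Values of every array are given for genes called between the mutants, for the 3 uncalled genes with the largest fall, and for genes a result turns on. Up to 3 called genes are named from each other list. Precision is limited by the 12 arrays. The method was tested on simulated data with independent noise on each array, which held no slide effects and no array-wide shift between genotypes.

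Same-numbered replicates were not treated as pairs. Correlations of their deviations from the group means ran from -0.141 to 0.216, and those of arrays with different numbers from -0.233 to 0.217. With 4 arrays per genotype, these values cannot exclude a pairing.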

Additional observations from a re-analysis of the deposited data

Results flagged for a closer look

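Of 95 groups of 4 arrays looked at, 6 held an array whose gap to its nearest neighbour exceeded the 95% critical value of Dixon's ratio test over the group's range, where chance gives about 1 group in 20 (0.05). In double null colonies replicate 4 was the lowest for Bard1 (-3.82, the others -2.61 to -2.55), Fancm (-0.89, the others -0.62 to -0.58) and Eme1 (0.59, the others 0.92 to 0.96). Double null replicate 2 was the lowest for Rad51c (-2.69, the others -1.98 to -1.84). In Bmi1 null colonies replicate 2 was the lowest for Fancc (-1.68, the others -0.80 to -0.64) and the highest for Chek1 (-2.28, the others -2.67 to -2.62). Bard1 remained called between the mutants without double null replicate 4, and Chek1 remained called without Bmi1 null replicate 2.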

How the results depend on the processing

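Leaving out 1 array at a time gave 4 to 9 genes higher and 0 to 1 lower in double null against Bmi1 null colonies. It gave 2 to 5 higher, 9 to 13 lower and a median of 0.74 to 0.90 relative to the median gene in Bmi1 null against wild type, and 7 to 9 higher, 1 to 3 lower and a median of 1.52 to 1.69 in double null against wild type. Between the mutants the lower count was 0 after scaling to the array median, quantile normalization or normexp, with the slide or replicate block, with the mean over probes, and with only the 2 genotypes fitted. The higher count was 0 with the slide block and 2 with the 2 genotypes, and the relative median was 0.22 after normexp.

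In Bmi1 null against wild type 16 were higher and 2 lower with the array median, 16 and 3 with quantile normalization and 18 and 4 in the authors' deposited table. The higher count was 2 with normexp, the lower count was 7 with the slide block, and the relative median was 0.51 with normexp, 0.60 in the authors' deposited table and -0.10 over genes well above background on all 12 arrays, where fewer genes were tested. In double null against wild type the higher count was 27, 20 and 22 with the array median, quantile normalization and the authors' deposited table, and 5 with the slide block. The lower count was 0 with these 3 and with normexp, and 5 with the mean over probes. The relative median was 0.97 with quantile normalization, 0.59 with normexp, 0.85 in the authors' deposited table, 0.59 with the filter on all 12 arrays and 1.79 with the slide block.

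Replicate numbers were not treated as pairs in the main fit. With them as a replicate block, 6 genes were higher and 0 lower between the mutants, and 2 higher in Bmi1 null against wild type. In double null against wild type 2 were lower, with a relative median of 1.79. Random slide blocks and kept outlier spots left all these counts within 1.5 times.

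Of 2301 differences of single genes under alternatives, 1946 kept direction and side of the threshold, 120 fell below it and 109 passed it. Another 75 changed sign without a call in either setting, 17 of them between the mutants, in Rad51b, Rad51d, Fancc, Eme1 and Chek2. The remaining 51 changed sign with a call in at least 1 of the settings, 0 of them between the mutants. In Bmi1 null against wild type the last kind became, with the array median, Bard1 0.052, Brca2 0.32, Rad54l 0.41, Rad54b 0.0050, Fancm 0.30, Rbbp8 0.89, Blm 0.51, Atm 0.74, Topbp1 0.69 and Chek1 0.53. With quantile normalization they became Bard1 1.78, Brca2 0.92, Palb2 1.09, Rad51c 1.63, Xrcc2 0.63, Rad51ap1 0.17, Atm 0.57, Topbp1 0.96 and Chek1 1.07. In the authors' deposited table they were Bard1 0.49, Brca2 0.59, Palb2 0.60, Rad51b 0.65, Rad51c 0.73, Xrcc2 0.25, Rad51ap1 0.026, Rad54b 0.076, Rbbp8 0.55, Atm 0.46, Topbp1 0.55 and Chek1 0.71, and with the mean over probes Fancg -0.41.

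In double null against wild type they became, with the array median, Palb2 0.99, Xrcc2 0.83, Rad51ap1 0.68, Fancg 0.78, Fancm 0.89 and Mus81 0.89. With quantile normalization they became Palb2 1.72, Rad51b 0.68, Xrcc2 1.76, Rad51ap1 1.32 and Fancd2 0.28. In the authors' deposited table they were Palb2 1.02, Rad51b 0.77, Xrcc2 0.95, Rad51ap1 0.80, Fancd2 0.065, Mus81 0.50 and Atrip -0.19, and with the mean over probes Rad51d -0.23. The cause was not tested. Signal over background limited Rad51c alone among the 32 genes.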

Other observations

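In wild-type colonies replicate 5 was the highest array for 21 of the 32 genes and replicate 3 the lowest for 17. The same wild-type replicate 5 had the highest median of the replication fork list relative to the median gene (0.90, against 0.0017 to 0.69 on the others) and of the mitosis list (1.16, against 0.38 to 0.74). In Bmi1 null colonies replicate 4 was the lowest array for 15 of the 32 genes, while its replication fork median was 2.14, within the range of 1.75 to 2.23 of the others.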
